A study of Rattus norvegicus with 12 samples.

Results

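Interferon-stimulated effector genes were followed across 4 groups of cultured rat heart muscle cells. These are the genes that a cell switches on in answer to interferon and whose products act against viruses. A list of 39 such genes was matched by symbol to the 32883 genes of the count table, and all 39 were found. A gene was kept when at least 3 libraries held 10 or more counts, which left 38. Zbp1, a sensor of Z-form nucleic acid, was the gene left out, with at most 5 counts in any library. Just inside the limit was Oas2, with 27 to 50 counts in the LacZ libraries and 2 in each K815Q-labelled library. All 38 were also among the 14063 genes tested.

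The cells were primary ventricular cardiomyocytes of newborn rats, and poly(A) RNA was sequenced. Every culture had been exposed to an adenovirus for 2 days, controls included. The control virus carried LacZ, a bacterial gene. By their labels, the other 3 groups received human KAT6A, a histone acetyltransferase, as wild type (WT), as K815R, whose arginine resists acetylation, or as K815Q, whose glutamine mimics it. Kat6a was not raised in the libraries of the K815Q label, as given below. Each group had 3 libraries, and no culture without virus was analysed here. A gene lower than in LacZ is said below to fall. A rise in LacZ and a fall in the other groups cannot be told apart in this design. The labels do not say whether the 3 came from separate cell isolations, so p-values measure the spread between these libraries, which may be technical.

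Type I interferon binds a receptor of 2 chains, Ifnar1 and Ifnar2. The kinases Jak1 and Tyk2 then activate a complex that holds Stat2 and Irf9 and binds interferon-stimulated response elements near its targets. The targets make up the effector layer. IFIT proteins bind foreign RNA, OAS enzymes make a messenger that turns on an RNA-degrading enzyme, Mx proteins are GTPases that trap viral particles, and Isg15 is a ubiquitin-like tag that is attached to proteins. Irf7, itself induced by interferon, amplifies the loop. Adenovirus DNA can set off this response in many cell types.

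Gene counts summed to 19102048 to 25451686 per library. Levels are given as CPM, the depth-scaled count, with TMM correction for library composition. A count of 3, taken as the floor, corresponded to 0.118 to 0.156 CPM. The virus cargo was checked first. Kat6a stood at 45.2 to 53.6 CPM in LacZ, 82.0 to 106 in WT, 101 to 122 in K815R and 43.4 to 49.97 among the K815Q-labelled libraries. By edgeR, Kat6a was higher than in LacZ by a log2 fold change of 0.95 in WT and 1.17 in K815R, and it differed by -0.05 in the K815Q-labelled libraries (adjusted p 0.815). Reads of human KAT6A and of the rat gene cannot be told apart in these counts. No rise was seen in the group labelled K815Q, which is therefore named by its label throughout. Another gene, Prkaa2, also differed among WT, K815R and the K815Q-labelled libraries, as given at the end. These groups therefore differ in more than the labelled KAT6A form. The summed level of 9 cardiomyocyte markers was 41753 to 47532 CPM over all libraries, and that of 8 fibroblast markers 10960 to 12803 CPM. Of 6 lymphocyte and plasmacytoid dendritic cell markers, the summed level was at most 0.182 CPM.

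The promoters are shown first, since nearly all members moved together. RefSeq promoter sequences (build GRCr8), 300 bases each and running from 250 before to 50 after the gene's start, were found for 30 of the 38 members. The core of the interferon-stimulated response element, GAAA followed by any 2 bases and GAAA, was searched on both strands. It occurred in 20 of the 30 member promoters (66.7%) and in 3.92% of 33469 promoters in all. The gamma-activated site TTCNNNGAA, a palindrome, occurred in 6 of the 30 and in 8.87% of all promoters. A match is a run of letters and not evidence that a factor binds. The 120 bases before the start are printed for 4 members: Ifit3 and Oas1a, whose transcripts fell strongly in every group other than LacZ, Ifitm3, the one member that differed among those groups, and Isg20, the one member that did not differ from LacZ. Capitals mark each match, 5′ to 3′ along the gene.
Ifit3, chr1:241527206-241527325, + strand: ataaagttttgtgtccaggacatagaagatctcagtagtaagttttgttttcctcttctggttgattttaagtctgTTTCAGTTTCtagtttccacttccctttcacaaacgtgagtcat
Oas1a, chr12:41330346-41330465, + strand: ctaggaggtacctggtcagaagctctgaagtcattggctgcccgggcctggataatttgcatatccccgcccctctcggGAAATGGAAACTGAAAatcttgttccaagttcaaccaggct
Ifitm3, chr1:205541759-205541878, - strand: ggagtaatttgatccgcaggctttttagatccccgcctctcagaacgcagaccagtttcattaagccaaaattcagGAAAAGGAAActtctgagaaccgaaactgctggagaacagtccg
Isg20, chr1:142239939-142240058, + strand: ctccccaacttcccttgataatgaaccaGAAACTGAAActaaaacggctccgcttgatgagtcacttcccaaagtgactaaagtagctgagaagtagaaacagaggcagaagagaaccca
In Ifit3 the match lies on the opposite strand, as TTTCAGTTTC. In Oas1a a pair of matches overlap. Isg20 holds a match as well, and 10 members without a match in this window, among them Mx1, Oasl, Uba7, Herc6 and Cmpk2, were lower in all 3 groups other than LacZ. The median log2 fold change in WT against LacZ was -1.48 for the 20 members with a match and -1.65 for the 10 without.

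To ask how effector levels differed from control, each of the other 3 groups was compared with LacZ. In WT 37 of the 38 members were called lower, at an adjusted p under 0.05 from edgeR's quasi-likelihood F test adjusted over all genes by the Benjamini-Hochberg method, against 3.39% of all genes. In K815R 35 were called lower, against 1.74% of all genes. In the K815Q-labelled libraries 37 were called lower, against 4.98% of all genes. No member was called higher by edgeR, against 1.95%, 0.74% and 2.87% of all genes, and the only fold change above 0 was that of Isg20 in K815R. The median log2 fold change of the 38 members was -1.63 in WT, -1.30 in K815R and -1.91 in the K815Q-labelled libraries, while that of all genes tested was 0.01, 0.00 and 0.01. The 3 comparisons share the LacZ libraries. Any difference among the 4 groups was called for 37 members, against 8.13% of all genes.

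In each of the 3 comparisons, 37 members had all 3 libraries of the compared group below every LacZ library. Over all genes this held for 12.3% in WT, 9.6% in K815R and 14.5% in the K815Q-labelled libraries. The fall was at least 2-fold for 30 members in WT, 25 in K815R and 31 in the K815Q-labelled libraries. It was at least 4-fold for 13, 7 and 16 of them. Reads of the 38 members made up 0.183% to 0.257% of gene counts in LacZ, 0.0780% to 0.0985% in WT, 0.0971% to 0.105% in K815R and 0.0736% to 0.0838% among the K815Q-labelled libraries. In bulk RNA, fewer cells that express a gene and less RNA per cell cannot be told apart. Macrophages can express these genes strongly. The summed level of 10 macrophage markers was 62.9 to 80.0 CPM in LacZ and 77.4 to 89.6 CPM in the 9 other libraries. One marker of the 10, Adgre1, was called lower, in the K815Q-labelled libraries (-0.54).

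**Figure D1:**
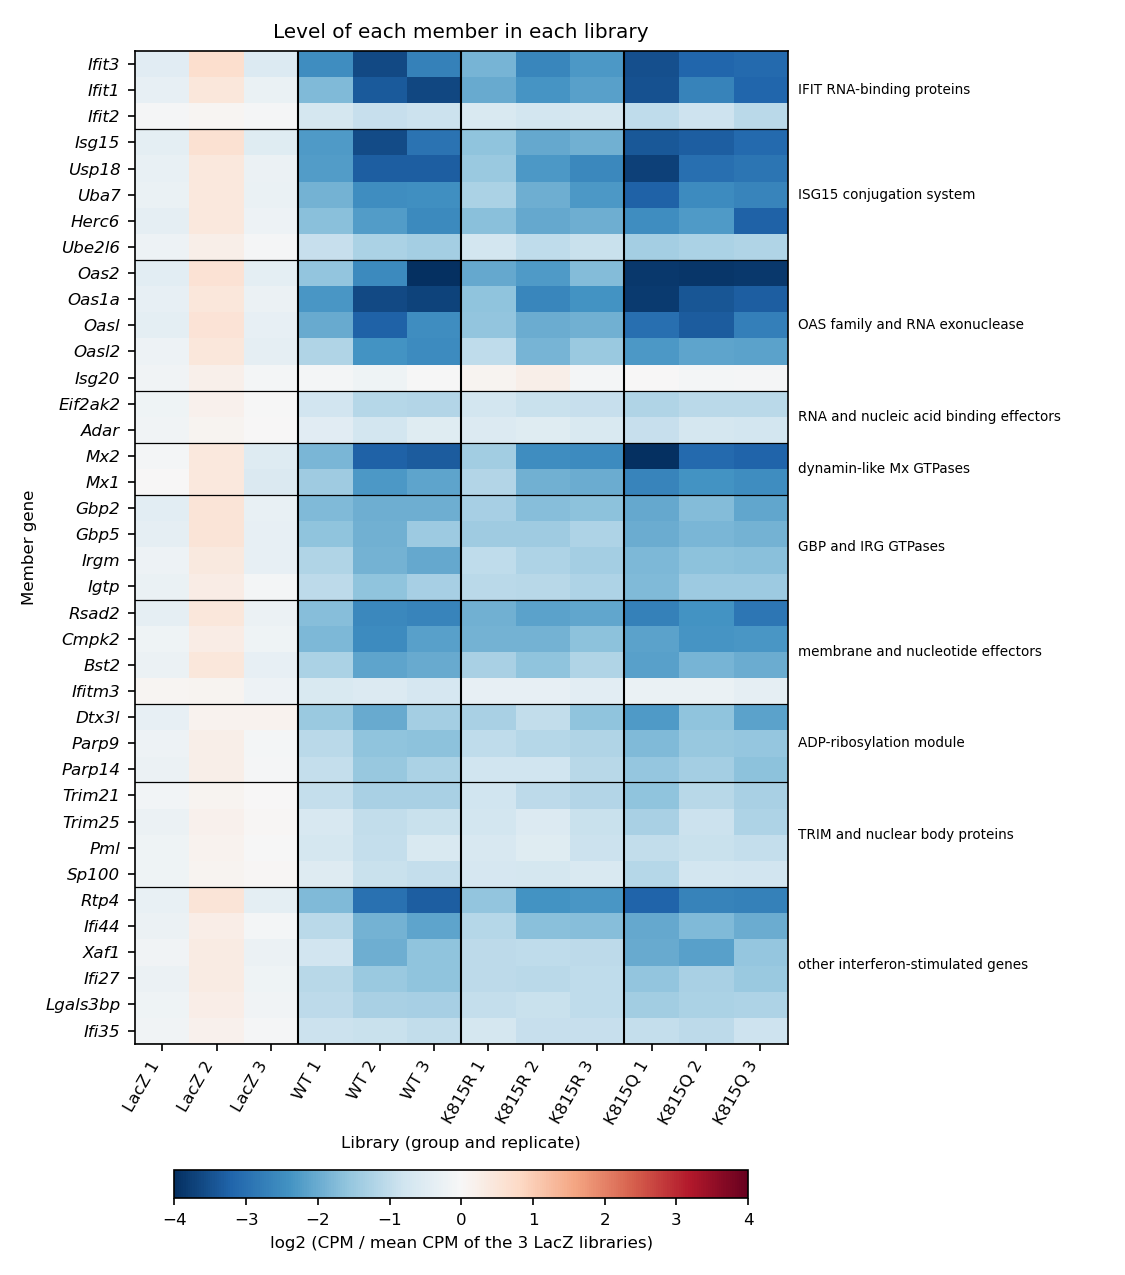
Level of the 38 members (rows, grouped by role) in the 12 libraries (columns), as log2 of the CPM over the mean CPM of the 3 LacZ libraries, on a colour scale from -4 to 4. All rows except Isg20 are blue in the 9 libraries other than LacZ, and LacZ replicate 2 is the pale red column.

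The call counts in WT and K815R depended on how the spread was estimated. When the 6 libraries compared were fitted alone, 22 members were called lower in WT, 23 in K815R and 35 in the K815Q-labelled libraries. Over all genes these fits called 663, 305 and 1032 in either direction, where the fit of all 12 libraries called 751, 348 and 1104. The member medians stayed at -1.63, -1.30 and -1.91. In WT these fits lost Ifit1, Ifit3, Isg15, Oasl, Oasl2, Mx1, Mx2, Gbp2, Gbp5, Bst2, Rsad2, Parp9, Ifi27, Ifi44 and Rtp4. The K815R calls lost were those of Ifit3, Isg15, Usp18, Uba7, Oasl, Mx1, Gbp2, Gbp5, Bst2, Ifi27, Ifi44 and Rtp4. Among the K815Q-labelled libraries they were Ifit3 and Gbp2. In K815R the count also fell to 23 without K815R replicate 2 and to 23 without K815R replicate 3. Over all genes these 2 fits called 283 and 204 in either direction. Without LacZ replicate 2, the highest LacZ library, 35, 27 and 37 members were called lower, with medians of -1.43, -1.05 and -1.64. The calls over all genes then numbered 383, 185 and 459 in either direction. Under the alternatives run, no called member changed direction.

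The IFIT proteins bind RNA that lacks the cell's own cap marks. All 3 members fell in all 3 comparisons. Ifit3 stood at 13.8, 30.3 and 13.03 CPM in LacZ, 3.40, 1.55 and 2.90 in WT, 5.25, 3.11 and 3.86 in K815R, against 1.66, 2.13 and 2.19 among the K815Q-labelled libraries. All 9 other libraries lay below every LacZ library, and LacZ replicate 2 stood far above the other LacZ libraries. The log2 fold change of Ifit3 against LacZ was -2.85 (SE 0.436) in WT, -2.24 (SE 0.399) in K815R and -3.25 (SE 0.461) in the K815Q-labelled libraries (adjusted p 0.00744, 0.0267 and 0.00522, edgeR). In K815R 3 of the 6 leave-one-out fits over the groups compared kept this call, and none of the 3 without a K815R library did. Ifit1, which overlaps the related gene Ifit1bl in the annotation and so has an uncertain count, fell by similar amounts, with log2 fold changes of -2.68, -2.18 and -3.05 in the same order. In K815R 1 of 6 such fits kept the Ifit1 call, the one without LacZ replicate 1. Ifit2 fell less, with log2 fold changes of -0.83, -0.68 and -0.97, and its calls held in all 6 such fits of each comparison.

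Isg15 is joined to target proteins by the activating enzyme Uba7, the conjugating enzyme Ube2l6 and, in rodents, the ligase Herc6, and Usp18 removes it and also blocks the interferon receptor. All 5 genes fell in each comparison. Usp18 stood at 43.6, 71.0 and 44.8 CPM in LacZ, 11.2, 5.37 and 5.37 in WT, 19.2, 10.8 and 8.85 in K815R, against 4.00, 6.60 and 6.98 among the K815Q-labelled libraries. The 3 other groups lay clear of LacZ, and replicate 1 was the highest library of both WT and K815R. Log2 fold changes of Usp18 were -2.86 (SE 0.394) in WT, -2.06 (SE 0.361) in K815R and -3.18 (SE 0.410) in the K815Q-labelled libraries (adjusted p 0.00475, 0.0256 and 0.00325, edgeR). In K815R 2 of 6 leave-one-out fits kept the call, those without LacZ replicate 1 and without K815R replicate 1. Isg15 itself gave -2.83, -1.84 and -3.26. The K815R call of Isg15 was lost whenever any one K815R library was left out. Of the 12 leave-one-out fits over all libraries, 5 kept it. Uba7 gave -2.25, -1.79 and -2.75, Herc6 -2.11, -1.88 and -2.59, and Ube2l6 the least, -1.17, -0.88 and -1.28. Without K815R replicate 2, Uba7 was not called in K815R (adjusted p 0.0543, edgeR).

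The OAS enzymes make 2',5'-linked oligoadenylate when they meet double-stranded RNA, and the OAS-like proteins Oasl and Oasl2 are their relatives. Oas1a, Oas2 and Oasl fell in all 3 comparisons. Oas1a stood at 6.41, 11.1 and 6.88 CPM in LacZ, 1.62, 0.672 and 0.618 in WT, 2.68, 1.34 and 1.54 in K815R, against 0.572, 0.762 and 0.834 among the K815Q-labelled libraries. Its highest library outside LacZ, K815R replicate 1, was still below the lowest LacZ library. The log2 fold change of Oas1a was -3.06 (SE 0.356), -2.16 (SE 0.311) and -3.48 (SE 0.379) in WT, K815R and the K815Q-labelled libraries (adjusted p 4.79e-04, 0.00367 and 2.90e-04, edgeR). Oas2 rested on few reads: 105 counts in LacZ, 17 in WT, 25 in K815R and 6 among the K815Q-labelled libraries. From these sums, scaled for library depth, it was 14.4-fold lower in the last group. The 95% exact counting interval of 6.39 to 40.1 covers counting error only. Oasl gave log2 fold changes of -2.49, -1.83 and -3.00. Its call in K815R was lost in each of the 3 fits without a K815R library. Oasl2 fell in WT (-1.90) and in the K815Q-labelled libraries (-2.19), and its value in K815R was -1.43 with an adjusted p of 0.0926 by edgeR. The WT call of Oasl2 was lost without LacZ replicate 2, WT replicate 2 or WT replicate 3, and the other without K815Q replicate 1 (adjusted p at most 0.101 and 0.0740, edgeR).

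Isg20, an exonuclease that degrades single-stranded RNA, was the exception among all 38. It stood at 7.37, 9.27 and 7.75 CPM in LacZ, 7.66, 7.24 and 8.13 in WT, 8.86, 9.499 and 7.63 in K815R, against 8.16, 7.77 and 7.82 among the K815Q-labelled libraries. The 4 groups overlapped. The log2 fold changes against LacZ were -0.08, 0.10 and -0.04, with 95% intervals of -0.31 to 0.15, -0.12 to 0.32 and -0.26 to 0.19 (adjusted p 0.757, 0.760 and 0.877, edgeR). A fall as large as that of most other members lay outside these intervals.

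Eif2ak2, the kinase PKR, halts translation on double-stranded RNA, and Adar edits adenosine in such RNA and so tempers its sensing. Both fell in each comparison. Eif2ak2 stood at 93.9, 120 and 104 CPM in LacZ, 62.7, 48.5 and 47.2 in WT, 63.9, 56.8 and 55.8 in K815R, against 46.4, 49.97 and 49.86 among the K815Q-labelled libraries. The 9 other libraries all lay below LacZ, with WT replicate 1 and K815R replicate 1 the nearest. The log2 fold change of Eif2ak2 was -1.005 (SE 0.113), -0.85 (SE 0.111) and -1.12 (SE 0.114) in the same order (adjusted p 3.69e-04, 0.00207 and 1.71e-04, edgeR). Adar gave -0.55, -0.54 and -0.78. The calls of both genes held in all 6 leave-one-out fits, in each comparison.

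Mx1 and Mx2 are dynamin-like GTPases that assemble on incoming viral particles. Mx2 stood at 56.8, 81.8 and 42.7 CPM in LacZ, 17.1, 6.41 and 6.03 in WT, 22.9, 10.9 and 10.7 in K815R, against 3.38, 7.01 and 6.56 among the K815Q-labelled libraries. In WT and in K815R, replicate 1 stood above the other libraries of its group, yet below LacZ. Mx2 fell in WT (log2 fold change -2.62, SE 0.479) and in the K815Q-labelled libraries (-3.41, SE 0.523), with adjusted p of 0.0179 and 0.00773 by edgeR. In K815R its value was -2.05 (SE 0.451, adjusted p 0.0611, edgeR). The WT call of Mx2 was lost without LacZ replicate 2, WT replicate 2 or WT replicate 3. Mx1 fell in all 3 comparisons, by -1.89, -1.66 and -2.49 as log2 fold changes. In WT the Mx1 call was lost without WT replicate 2 or WT replicate 3. In K815R it was kept in 2 of 6 such fits, and in 4 of 12 over all libraries.

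The guanylate-binding proteins Gbp2 and Gbp5 and the immunity-related GTPases Igtp and Irgm act in defence against intracellular microbes. All 4 fell in each comparison. Gbp2 stood at 20.8, 39.9 and 22.3 CPM in LacZ, 8.11, 7.13 and 7.13 in WT, 11.1, 8.51 and 8.90 in K815R, against 6.71, 8.28 and 6.51 among the K815Q-labelled libraries. WT and the K815Q-labelled libraries covered much the same range, and K815R lay just above both. Log2 fold changes of Gbp2 were -1.89 (SE 0.267), -1.55 (SE 0.255) and -1.94 (SE 0.270) (adjusted p 0.00452, 0.0172 and 0.00396, edgeR). Without K815R replicate 2 or K815R replicate 3 its call in K815R was lost. Gbp5 gave -1.64, -1.35 and -1.89, Irgm -1.66, -1.19 and -1.69, and Igtp -1.31, -1.13 and -1.54. The calls of Gbp5, Irgm and Igtp held in all 6 leave-one-out fits, in each comparison. With the 6 libraries compared fitted alone, Gbp5 was not called in WT or in K815R.

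Rsad2 (viperin) and Cmpk2 lie next to each other in the genome and work in sequence on nucleotides, Rsad2 turning CTP into a chain terminator of viral RNA synthesis. Rsad2 stood at 10.5, 18.7 and 11.4 CPM in LacZ, 4.16, 2.27 and 2.19 in WT, 3.61, 3.07 and 3.18 in K815R, against 2.08, 2.59 and 1.82 among the K815Q-labelled libraries. Its 3 K815R libraries lay inside the WT range. The log2 fold change of Rsad2 was -2.23 (SE 0.277), -2.04 (SE 0.266) and -2.64 (SE 0.293) (adjusted p 0.00109, 0.00281 and 5.58e-04, edgeR). Cmpk2 gave -2.13, -1.79 and -2.26. It had the smallest adjusted p of the 38 members in each comparison, 1.21e-07, 9.28e-07 and 6.23e-08 by edgeR. Bst2 (tetherin), which holds budding virus on the cell surface, gave -1.74, -1.37 and -2.01. Its call in K815R was lost in each of the 6 leave-one-out fits, with adjusted p up to 0.122 by edgeR. Over all 12 libraries, 1 of 12 such fits kept it.

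Parp9 and Parp14 are ADP-ribosyltransferases, and Dtx3l is the ubiquitin ligase that pairs with Parp9. All 3 fell in each comparison, and each call held in all 6 leave-one-out fits. With the 6 libraries compared fitted alone, Parp9 was not called in WT. Dtx3l stood at 11.0, 15.3 and 15.3 CPM in LacZ, 4.97, 3.46 and 5.46 in WT, 5.67, 7.05 and 4.59 in K815R, against 2.86, 4.52 and 3.13 among the K815Q-labelled libraries. Unlike most members, its highest K815R library was replicate 2. Log2 fold changes of Dtx3l were -1.58 (SE 0.203), -1.26 (SE 0.193) and -1.98 (SE 0.214) (adjusted p 5.95e-04, 0.00375 and 1.57e-04, edgeR). Parp9 gave -1.41, -1.13 and -1.61, and Parp14 -1.21, -0.89 and -1.51. Parp9 and Dtx3l overlap in the RefSeq annotation, and the strand setting of the counting is not given in the sources used here. Their counts are therefore uncertain. In all, 9 members overlap another annotated gene, and the same holds for Ifit1, Irgm, Xaf1, Rtp4, Oasl, Oasl2 and Eif2ak2.

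Trim25 and Trim21 are ubiquitin ligases of antiviral signalling, and Pml and Sp100 build the nuclear bodies where viral genomes, adenoviral ones included, are held. All 4 fell in each comparison, by less than most members above. Trim21 stood at 23.8, 27.8 and 26.1 CPM in LacZ, 13.3, 10.5 and 10.6 in WT, 14.9, 12.6 and 11.5 in K815R, against 8.58, 11.9 and 10.5 among the K815Q-labelled libraries. The 3 other groups overlapped with each other and lay well below LacZ. The log2 fold change of Trim21 was -1.18 (SE 0.114), -0.999 (SE 0.111) and -1.32 (SE 0.116) (adjusted p 5.69e-06, 4.80e-05 and 1.64e-06, edgeR). Trim25 gave -0.83, -0.71 and -1.11, Pml -0.75, -0.65 and -0.94, and Sp100 -0.77, -0.67 and -0.86. In K815R 2 of 6 leave-one-out fits kept the call of Trim25, those without LacZ replicate 1 and without K815R replicate 2.

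The remaining 6 members have more varied roles, and all fell in each comparison. Rtp4 is a chaperone of receptors that also damps RNA virus replication. It stood at 13.7, 24.1 and 13.03 CPM in LacZ, 5.02, 2.12 and 1.71 in WT, 5.72, 3.23 and 3.41 in K815R, against 1.82, 2.64 and 2.61 among the K815Q-labelled libraries. Both WT and K815R had replicate 1 as their highest library. Log2 fold changes of Rtp4 were -2.52 (SE 0.417), -2.06 (SE 0.389) and -2.84 (SE 0.436) (adjusted p 0.0111, 0.0325 and 0.00755, edgeR). Its call in K815R was lost in each of the 6 leave-one-out fits, and its call in WT without WT replicate 2. Over all 12 libraries, 3 of 12 such fits kept the K815R call. Ifi44 gave -1.62, -1.48 and -1.94, Ifi27 -1.38, -1.05 and -1.44, and Lgals3bp, a secreted glycoprotein, -1.22, -0.95 and -1.29. Xaf1, an inhibitor of anti-apoptotic proteins, gave -1.34, -1.02 and -1.87, and Ifi35 -0.91, -0.85 and -0.94. The K815R call of Ifi27 was lost without any one K815R library, that of Ifi44 was kept in 2 of 6 fits, and that of Xaf1 was lost without LacZ replicate 2. The WT call of Ifi44 was lost without WT replicate 2.

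**Figure D2:**
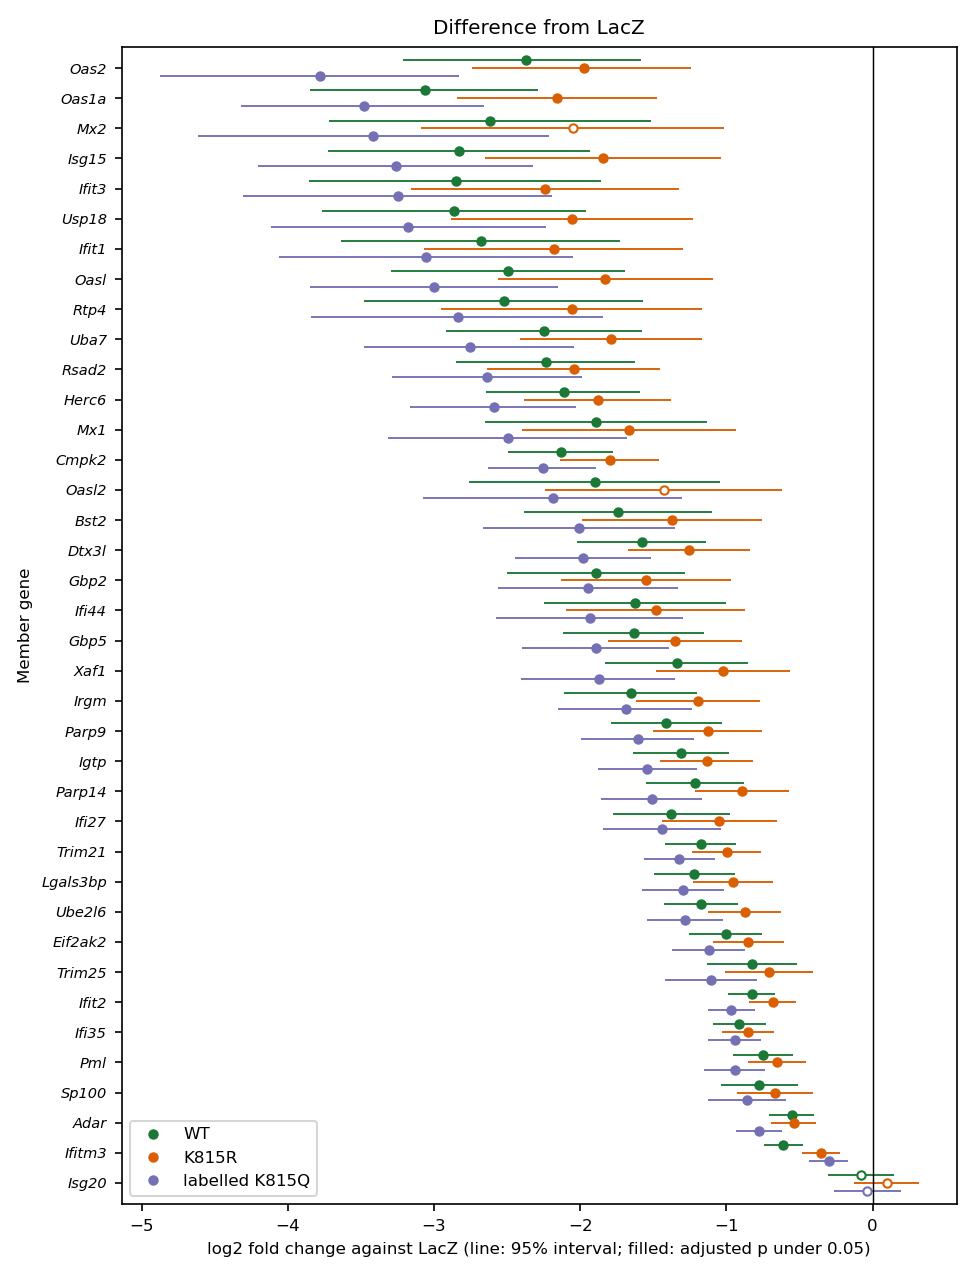
Log2 fold change of each member against LacZ in WT, K815R and the K815Q-labelled libraries (points), with 95% intervals (lines); filled points were called. Oas2, on few counts, is lowest at -3.78 in the K815Q-labelled libraries, and the 3 intervals of Isg20 cross 0.

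**Figure D3:**
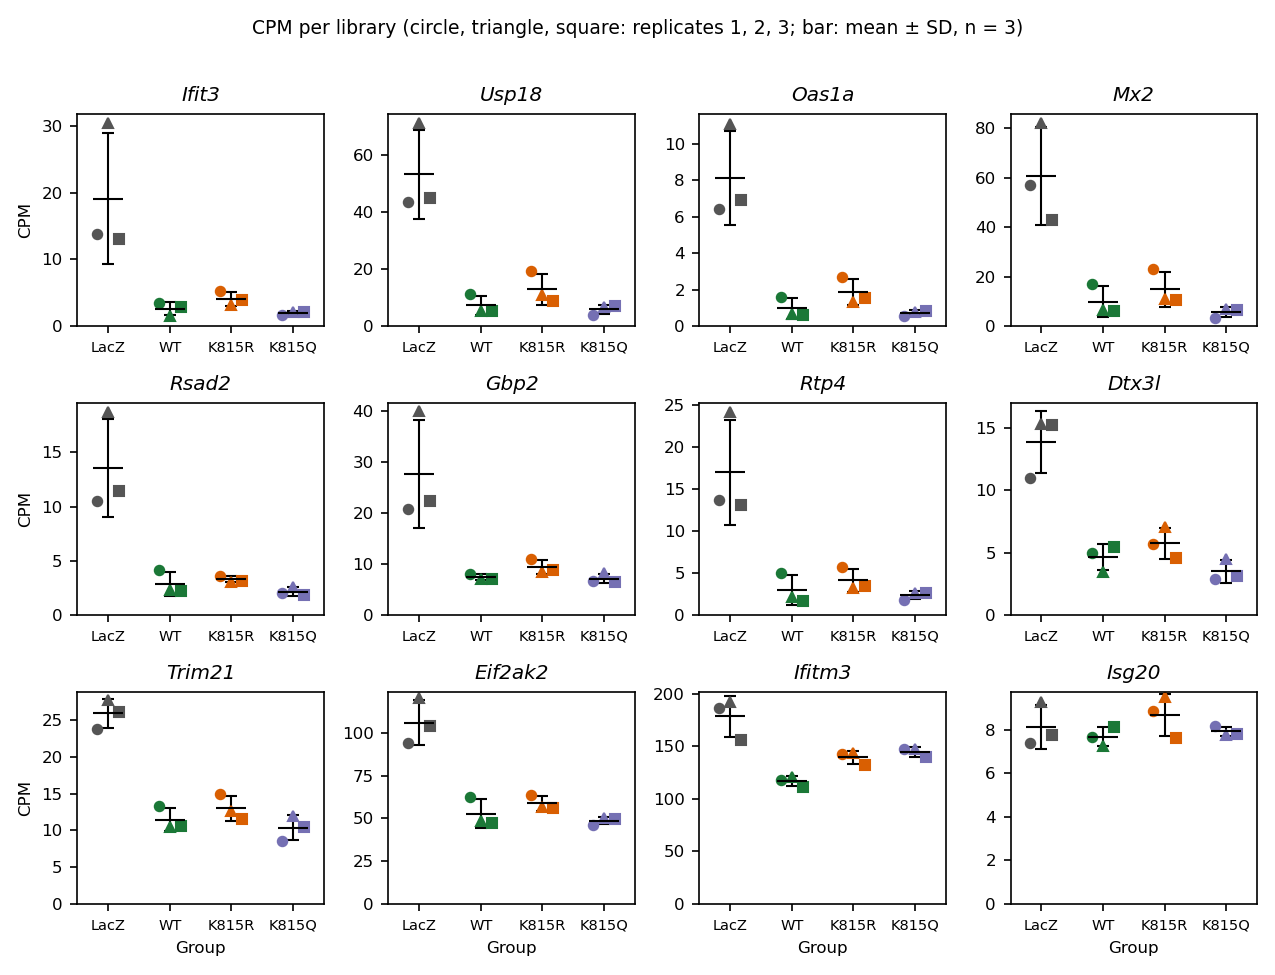
CPM of 12 members in each library, by group, on axes that start at 0; symbols mark replicates 1 to 3 and the bar is the mean with SD (n = 3). LacZ replicate 2 is the highest LacZ library in each panel shown, and Ifitm3 is the panel in which WT is lowest and clear of K815R and the K815Q-labelled libraries.

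Members also moved together within groups. LacZ replicate 2 was the highest LacZ library for all 38 members, and its members' median stood at 0.34 above the LacZ mean on the log2 scale, against -0.20 and -0.18 in the other LacZ libraries. WT replicate 1 was the highest WT library for 33 of 38, K815R replicate 1 the highest in its group for 23, and K815Q replicate 1 the lowest in its group for 26. The median coefficient of variation of the members was 21.9% in LacZ and 23.5% in WT, where all genes tested gave 6.36% and 6.58%. In K815R and the K815Q-labelled libraries it was 12.8% and 10.1%, against 6.75% and 6.88%. Deviations from the group means correlated between members over the 12 libraries, with a median Pearson r of 0.69 over 703 pairs and 74.7% of pairs above 0.5. Between members and other genes the median r was -0.0045 and 8.65% of pairs lay above 0.5. These points share their libraries and group means, so the 38 members are not 38 independent observations of a group difference.

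The 3 groups other than LacZ were then compared with each other, and members were ranked by the F statistic of any difference among WT, K815R and the K815Q-labelled libraries. Only Ifitm3 was called, 1 of 38 against 2.15% of all genes, a share near the background. A total of 12 members had an unadjusted p under 0.05, against 16.4% of all genes. Ifitm3 keeps viral envelopes from fusing with endosomes. It stood at 186, 192 and 156 CPM in LacZ, 118, 121 and 111 in WT, 143, 143 and 132 in K815R, against 147, 147 and 140 among the K815Q-labelled libraries. WT was the lowest group, K815R and the K815Q-labelled libraries overlapped, and all 3 groups lay below LacZ. Against LacZ the log2 fold change of Ifitm3 was -0.61 (SE 0.0635) in WT, -0.35 (SE 0.0628) in K815R and -0.30 (SE 0.0630) in the K815Q-labelled libraries (adjusted p 5.69e-06, 0.00262 and 0.00541, edgeR).

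Ifitm3 rose from WT to K815R by a log2 fold change of 0.26 (95% interval 0.12 to 0.39, adjusted p 0.0369, edgeR) and from WT to the K815Q-labelled libraries by 0.31 (95% interval 0.18 to 0.44, adjusted p 0.0162, edgeR). These were the only members called in those comparisons, against 1.32% and 0.718% of all genes called higher. Both calls were fragile. The first was kept in 1 of 6 leave-one-out fits, the one without K815R replicate 3, and its value ran from 0.22 to 0.30. The second was kept in 2 of 6, those without WT replicate 2 and without K815Q replicate 3, with values from 0.28 to 0.34. K815R and the K815Q-labelled libraries did not differ in Ifitm3 beyond their spread, at -0.05 for K815R minus labelled K815Q with a 95% interval of -0.18 to 0.08 (adjusted p 0.802, edgeR). Ifitm3 belongs to a family of similar genes, so its count is uncertain.

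Next in the ranking came Parp14, Adar, Ifit2, Ube2l6 and Isg15, with F from 7.06 to 5.60 and adjusted p from 0.144 to 0.241 by edgeR, none of them called. Isg15 stood at 11.0, 4.44 and 6.80 CPM in WT, 17.4, 12.8 and 13.9 in K815R, against 4.99, 5.38 and 6.04 among the K815Q-labelled libraries, after 40.4, 80.2 and 37.3 in LacZ. The K815R libraries lay above all WT and all K815Q-labelled libraries. Isg15 in K815R minus WT was 0.98 (95% interval 0.00086 to 1.97, adjusted p 0.363, edgeR), and minus the K815Q-labelled libraries 1.42 (0.38 to 2.46, adjusted p 0.288, edgeR). Parp14 stood at 16.5, 11.2 and 13.2 CPM in WT, 18.3, 18.3 and 14.5 in K815R, against 10.7, 12.3 and 10.2 among the K815Q-labelled libraries. Its K815R libraries were above all K815Q-labelled libraries and overlapped with WT. K815R minus labelled K815Q was 0.62 for Parp14 (0.26 to 0.98, adjusted p 0.159, edgeR). At the foot of the ranking Ifi35 differed by 0.09 between the same groups, with a 95% interval of -0.10 to 0.29.

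Of the 38 members, 36 had their group means in the order K815R, WT, labelled K815Q from high to low. The exceptions were Ifitm3 and Isg20. K815R exceeded the K815Q-labelled libraries by a median of 0.52 on the log2 scale. All 3 K815R libraries lay above all 3 K815Q-labelled libraries for 33 members, against 8.28% of all genes. By edgeR's test 0 members were called in this comparison, against 0.363% of all genes, while 22 had an unadjusted p under 0.05, against 11.4% of all genes. DESeq2 called 2, Isg15 and Parp14. Without a filter on low counts edgeR called 4, and with the 6 libraries compared fitted alone it called 9. Over all genes DESeq2 called 105, edgeR without the filter 307 and edgeR on the 6 libraries 84, against 51 in the fit of all 12. Since the members move together, these counts do not add up as separate tests.

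The place of WT in that order rested on 1 library. With all libraries the labelled K815Q value was below WT for 36 of 38 members, with a median of -0.27. Without WT replicate 1 it was below for 20 of 38, with a median of -0.02. The median of K815R minus WT was 0.31, and 0.50 without that library. All K815R libraries lay above all WT libraries for 7 members, against 9.49% of all genes: Isg15, Oasl, Gbp2, Gbp5, Ifitm3, Ifi27 and Lgals3bp. All K815Q-labelled libraries lay below all WT libraries for Uba7 and Mx1 only, against 10.3% of all genes.

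**Figure D4:**
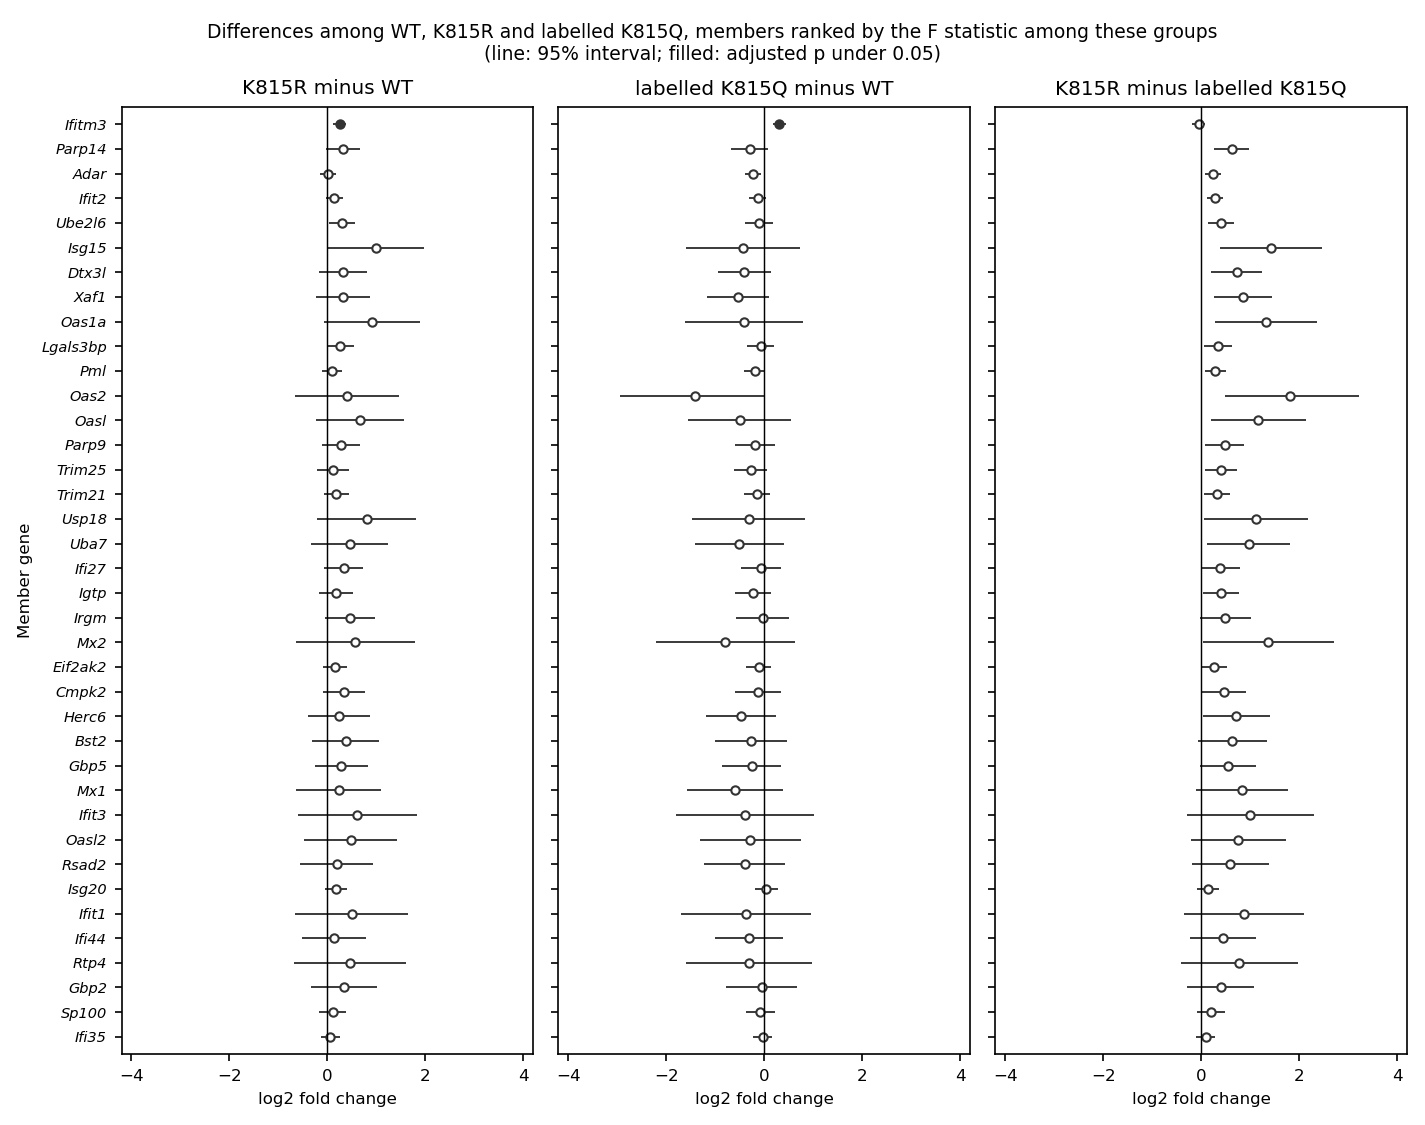
Log2 fold change between each pair of WT, K815R and the K815Q-labelled libraries for the 38 members, ranked from the top by the F statistic among these 3 groups; lines are 95% intervals and filled points were called. Ifitm3 is the filled point in both comparisons with WT, and no point is filled for K815R minus labelled K815Q.

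Other genes of the interferon pathway were read from lists. The part of this pathway in the effector levels seen here was not tested. Of 9 interferon ligand genes matched, none exceeded 2 counts in a library, 5 had no count at all, and the sum over genes and libraries was 15 counts, so no ligand could be tested at this depth. The 6 receptor chains were called in no comparison by edgeR, with medians of -0.03, 0.04 and -0.02 against LacZ in WT, K815R and the K815Q-labelled libraries. An unadjusted p under 0.05 was reached by 1, 2 and 1 of them, against 2680, 1938 and 3409 of all 14063 genes. Of 5 genes for kinases, Stat2 and Irf9, 2 were lower in WT, 2 in K815R and 3 in the K815Q-labelled libraries, and none higher. Of all genes, 3.39%, 1.74% and 4.98% were called lower in the same order. Stat2 fell by log2 fold changes of -1.20, -0.89 and -1.22 and Irf9 by -0.72, -0.67 and -0.91, and Jak1 fell in the last comparison by -0.18.

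Of 8 other interferon regulatory factors, Irf7 fell in each comparison, Irf1 fell in WT (-0.35) and Irf3 rose in WT (0.23). Irf7 stood at 75.0 to 153 CPM in LacZ, 9.30 to 22.7 in WT, 19.9 to 29.3 in K815R and 9.56 to 12.5 among the K815Q-labelled libraries. Its range in each of the other groups lay below that of LacZ, in the same group order as most effectors. Of 12 nucleic acid sensors and adaptors tested, 4 were lower in WT, 3 in K815R and 3 in the K815Q-labelled libraries, and none higher. The shares of all genes called lower were 3.39%, 1.74% and 4.98%. The RNA sensors Ddx58 (RIG-I), Ifih1 (MDA5) and Dhx58 (LGP2), themselves induced by interferon, were called lower in each comparison with LacZ. Against LacZ they stood, on the log2 scale, at -1.93, -1.37 and -2.12 in WT, at -1.44, -1.20 and -1.86 in K815R, against -2.25, -1.74 and -2.81 among the K815Q-labelled libraries. Tlr3 fell in WT (-0.59). The adaptors Mavs and Myd88 and the kinase Tbk1 lay between -0.11 and 0.09 and were not called. Of 9 negative regulators, Samhd1 fell in WT (-0.59) and in the K815Q-labelled libraries (-0.70), and none was called in K815R. Between pairs of groups other than LacZ, no gene of these lists was called by edgeR, and 0 to 3 genes of each list had an unadjusted p under 0.05.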

How the data were processed

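The authors deposited 1 table of raw read counts per Ensembl gene for 12 libraries, 3 in each of 4 groups. Per the submitters' processing notes, Trimmomatic 0.39, HISAT2 2.2.1, HTSeq 0.6.1 and edgeR were used with build Rnor_6.0. The annotation and strand setting are not given in the sources used here. The 5 last rows name no gene and held 40.7% to 43.3% of reads; they were left out. These include reads aligned to more than 1 place, so genes with close copies are counted in part.

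The filter filterByExpr (10 counts at least, 15 in total) and TMM scaling were applied, and genes were fitted with edgeR 4.0.16 in R 4.3.3 (robust quasi-likelihood) in 1 model of group means over 12 libraries. Benjamini-Hochberg adjustment ran over 14063 genes. SE and 95% intervals come from that fit. Replicates differed by more than counting noise: chi-square per degree of freedom was 4.78 to 9.29 within groups. Alternatives were RLE and upper-quartile scaling, 2 other filters, DESeq2 1.42.0, a replicate term, fits of the compared groups alone and leaving out each library. The procedure was tested on simulated data. Members and lists were chosen with earlier results of these data known. Library values were given for the member with the largest mean change in each role group, for members called between groups other than LacZ, and for Isg20; Isg15 and Parp14 were added after their values were seen.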

Additional observations from a re-analysis of the deposited data

How the results depend on the processing

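All calls of members kept their direction under every alternative run: of 2787 repeats of a called member, 2662 were called again, 125 were not and none changed sign. RLE and upper-quartile scaling left the counts in the 6 pairwise comparisons as they were. Fits of only the groups compared gave 22 members in WT and 23 in K815R against LacZ, 9 in K815R against labelled K815Q and 2 among the 3 groups other than LacZ, where the fit of all libraries gave 37, 35, 0 and 1. Over all genes those fits called 663, 305, 84 and 327, and the fit of all libraries 751, 348, 51 and 302. DESeq2 gave 2 in K815R against labelled K815Q and 4 among the groups other than LacZ, with 105 and 384 over all genes. Without a filter on low counts these were 4 and 4 members, and labelled K815Q against WT gave 2. The same 3 counts over all genes were 307, 856 and 423. Leaving out each of the 12 libraries gave 32 to 37 members in WT, 23 to 37 in K815R and 36 to 37 in labelled K815Q against LacZ, 0 to 2 in K815R against WT, 0 to 1 in labelled K815Q against WT, 0 to 1 in K815R against labelled K815Q and 0 to 3 among those groups. The highest counts between groups other than LacZ (2, 1 and 3) came without LacZ replicate 2, with 335, 68 and 331 over all genes. The cause was not tested.

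Replicate numbers are shared by the groups. Deviations of same-numbered libraries were weakly correlated at most (18 correlations from -0.13 to 0.12, 1 above 0.1). The 36 correlations between libraries of different numbers ran from -0.13 to 0.15. Whether same-numbered libraries share a preparation is not given by the labels and was not tested. With the replicate block, 37, 29 and 37 members were called against LacZ, and 800, 390 and 1280 of all genes. In 15 of 36 cases a library correlated best with its own number. Depth limits Oas2, with 2 counts in each K815Q-labelled library, and with 3 libraries a group the spread itself is poorly known.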

Other observations

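The group means of Prkaa2, which encodes a catalytic subunit of AMPK, stood in the reverse order of most effectors: 60.9 ± 10.2 CPM in LacZ, 87.2 ± 8.70 in K815R, 519 ± 102 in WT and 1168 ± 55.4 in the K815Q-labelled libraries (mean ± SD, n = 3). Prkaa2 was called higher than in LacZ in WT (log2 fold change 3.09) and in the K815Q-labelled libraries (4.26), with adjusted p of 2.51e-05 and 4.06e-06 by edgeR. It was not called in K815R against LacZ (0.52, adjusted p 0.190, edgeR). Between the other groups it was called at -2.57 for K815R minus WT, 1.17 for labelled K815Q minus WT and -3.74 for K815R minus labelled K815Q. Among the effectors, the place of labelled K815Q below WT rested on WT replicate 1. Kat6a did not follow the order of the Prkaa2 means. LacZ and the K815Q-labelled libraries had Kat6a at 48.1 ± 4.75 and 46.3 ± 3.35 CPM (SD, n = 3). For most effectors these groups had the highest and the lowest mean. With 4 groups no correlation was computed, and the part of either gene in the effector levels was not tested.

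Neighbouring members did not always fall alike. Ifit2 and Ifit3 lie next to each other in the RefSeq annotation, and against LacZ in WT Ifit2 was 1.77-fold and Ifit3 7.21-fold lower. Rsad2 and Cmpk2, also neighbours, were 4.71-fold and 4.38-fold lower, and Parp9 and Dtx3l, which overlap, 2.66-fold and 2.98-fold lower. Oasl and Oasl2, the remaining neighbours, were 5.62-fold and 3.74-fold lower. The differences between neighbours were not tested. The only member with no call in any comparison, Isg20, holds the same 10 bases as the match nearer the start in Oas1a, 92 bases before its start. All 6 members whose promoters hold the gamma-activated site, Oas1a, Igtp, Irgm, Bst2, Ifitm3 and Parp14, hold the response element core as well.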
